A study of Arabidopsis thaliana with 12 samples.

Results

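The comparison described here sets scrm-D;mute seedlings, the double mutant, against scrm-D seedlings. It asks what the loss of MUTE changes where the dominant scrm-D allele is carried by both groups. It uses the 3 arrays titled scrm-D;mute and the 3 titled scrm-D, 6 of the 12 arrays in the series. The other 6 arrays are 3 of wild type (WT) and 3 of spch, and they enter as reference levels and in the estimate of the spread. All seedlings were of the Col-0 ecotype of Arabidopsis thaliana, were grown on plates without a treatment, and were harvested whole 5 days after germination. Each genotype has biological replicates 2, 3 and 4, and values below are listed in that order.

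Stomata are pores of the plant epidermis, each bounded by a pair of guard cells. Their lineage is driven by the basic helix-loop-helix factors SPEECHLESS (SPCH), which starts the asymmetric divisions that make meristemoids, MUTE, which ends the meristemoid stage, and FAMA, which completes guard cell identity. Each acts together with SCREAM (SCRM), and scrm-D is a gain-of-function allele of SCRM. In the labels the scrm-D epidermis is made of guard cells and the scrm-D;mute epidermis almost wholly of meristemoids. The samples were whole seedlings, which also hold mesophyll, vascular tissue and root, so a lower number of cells of a type and less RNA per cell cannot be told apart in any value below.

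Groups follow the titles and the genotype fields, because the free-text description of the 3 scrm-D samples names scrm-D;mute. Bacterial transcripts added as controls separated the groups in the same way as the titles. Phe control probe sets averaged between 13.07 and 13.09 on the scrm-D arrays, and Trp control probe sets between 12.82 and 13.02 on the scrm-D;mute arrays. A preparation group marked by these controls and the genotype therefore cannot be told apart. On scrm-D;mute replicate 4 the Phe control probe sets averaged 5.15, against at most 4.34 on WT arrays. The 25S rRNA control probe set read 10.84, 11.06 and 6.96 in the double mutant and 10.07, 9.74 and 8.98 in scrm-D. Arrays of 1 genotype correlated over the probe sets, which are no replicates, with r from 0.987 to 0.993 and arrays of different genotypes with r from 0.960 to 0.976 over the 6 arrays. The medians of these arrays lay between 6.47 and 6.53. Precision is limited by having 3 arrays a group.

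**Figure D1:**
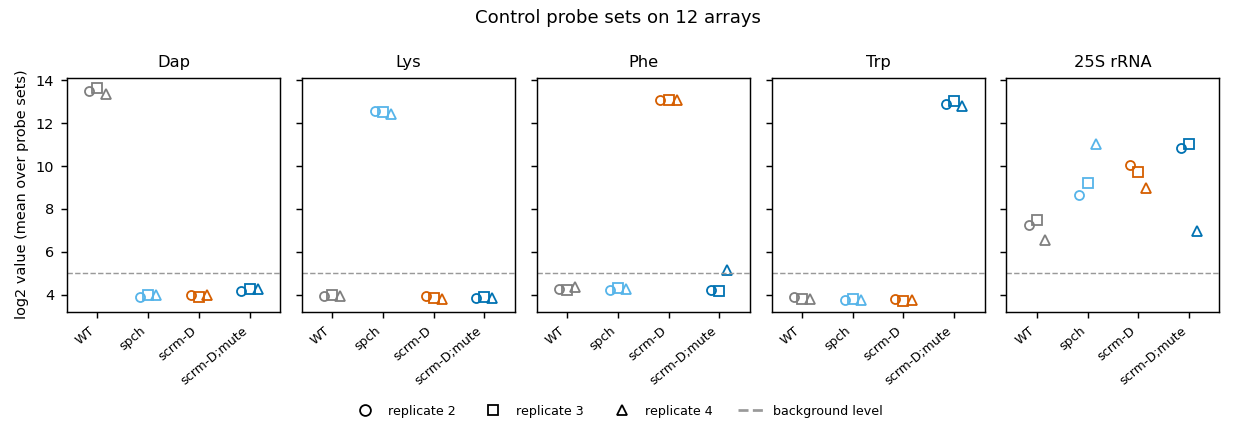
Mean log2 value (y axis) of the bacterial Dap, Lys, Phe and Trp control probe sets and of the 25S rRNA control probe set on the 12 arrays, by genotype (x axis), with 1 symbol per array and the background level of 4.99 as a dashed line. Each bacterial control is high in 1 genotype, scrm-D;mute replicate 4 reads 5.15 for Phe, and the 25S rRNA value of that array is 6.96 against 10.84 and 11.06 on the other scrm-D;mute arrays.

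Loss of MUTE in the scrm-D background was accompanied by higher transcript levels of early lineage and cell division genes and by lower levels of FAMA and of genes that work in guard cells. Of 22746 probe sets, 3046 (13.4%) passed limma's moderated test at an adjusted p under 0.05. Of these, 1695 (7.45%) were higher in scrm-D;mute and 1351 (5.94%) were lower. A change of at least 2-fold was seen in 864 of the called probe sets (3.80%), 465 higher and 399 lower. At 4-fold or more there were 117 higher and 109 lower, at 8-fold or more 27 and 43, and at 16-fold or more 5 and 10. The 3 values of one group lay wholly above or below the 3 of the other in 6458 probe sets (28.4%), which included 3002 of those called. Changes ran from −5.49 to 4.56 on the log2 scale, with a median of 0.0022. Without scrm-D;mute replicate 2 or 3 the test called 1968 and 1962 probe sets.

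**Figure D2:**
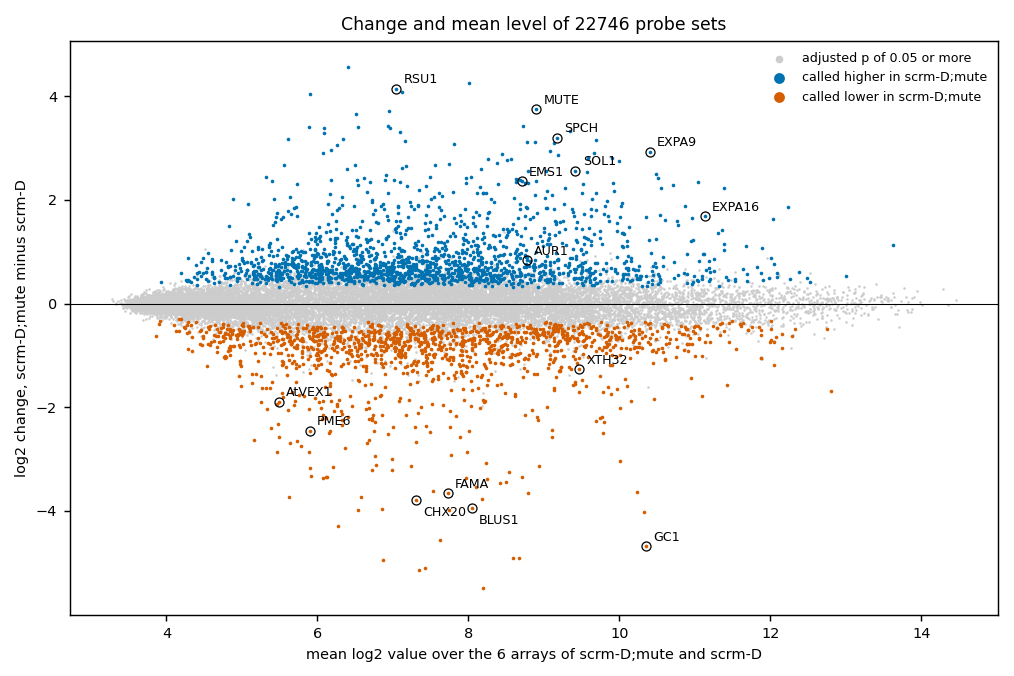
Log2 change, scrm-D;mute minus scrm-D (y axis), against the mean log2 value over the 6 arrays (x axis) for 22746 probe sets, 1 point each, with calls at an adjusted p under 0.05 in colour. MUTE, SPCH, SOL1 and EXPA9 stand among the rises at 3.75, 3.20, 2.56 and 2.93, and GC1, BLUS1, CHX20 and FAMA among the falls at −4.68, −3.94, −3.78 and −3.66.

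The factors of the early lineage were highest in scrm-D;mute. MUTE (AT3G06120) read 6.93, 7.58 and 6.57 in scrm-D and 11.00, 10.61 and 10.72 in the double mutant. The groups did not overlap, and MUTE was 13.5-fold higher in scrm-D;mute (log2 change 3.75 ± 0.21 SE, adjusted p = 1.56e-07). The sources used here do not place the mute lesion relative to the probe set, so the MUTE level checks nothing about the mute label. SPCH (AT5G53210) read 7.42, 8.17 and 7.13 in scrm-D and 10.89, 10.85 and 10.56 in the double mutant. All scrm-D;mute values again lay above all scrm-D values, a 9.18-fold rise (log2 change 3.20 ± 0.23 SE, adjusted p = 1.77e-06). Both genes were lower in WT than in either group, SPCH at 6.15 to 6.71 and MUTE at 4.42 to 4.52. The MUTE values in WT lay under 4.99, the background level, which is the 95th percentile of control probe sets on arrays without their transcript.

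FAMA, the factor of the last step, went the other way. FAMA (AT3G24140) read 9.63, 9.63 and 9.41 in scrm-D and 6.10, 5.64 and 5.94 in the double mutant. It was 12.7-fold lower in scrm-D;mute (log2 change −3.66 ± 0.18 SE, adjusted p = 5.88e-08), with no overlap. WT stood between the groups, at 6.79, 6.84 and 7.07. FAMA in scrm-D;mute was also under its WT level, at −1.01 ± 0.18 (adjusted p = 0.00113), whereas scrm-D stood above WT by 2.65 ± 0.18 (adjusted p = 2.07e-06). These comparisons share arrays with the main one.

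Of 36 listed stomatal lineage genes, 7 had a probe set assigned to 1 gene. Of the 7, 5 (71.4%) were called, 4 higher and 1 lower, against 13.4% of all probe sets. Their median log2 change over the 7 was 1.60, against 0.0022 over all probe sets. SCRM had no such probe set and was not analysed here. SOL1 (AT3G22760), a DNA-binding protein of lineage transitions, read 8.28, 8.48 and 7.65 in scrm-D and 10.93, 10.73 and 10.43 in the double mutant, and rose 5.90-fold (log2 change 2.56 ± 0.24 SE, adjusted p = 1.41e-05). BRXL2 (AT3G14000), a polarity protein of asymmetric division, read 6.11, 5.84 and 5.44 in scrm-D and 7.34, 7.62 and 7.23 in the double mutant, and rose 3.03-fold (adjusted p = 0.000287). The groups of both genes were separate. EPFL9 (AT4G12970), which encodes stomagen, a mesophyll peptide that promotes stomata, read 8.15, 8.26 and 7.06 in scrm-D and 7.11, 7.06 and 6.12 in the double mutant. Replicate 4 was lowest in both genotypes, the groups overlapped, and EPFL9 did not pass (log2 change −1.06 ± 0.40 SE, adjusted p = 0.105). Under a replicate block its adjusted p was 0.00231. It was 0.0349 without scrm-D replicate 4, 0.0394 without spch replicate 4 and 0.000279 when replicate 4 was left out of all 4 genotypes, but 0.287 without scrm-D;mute replicate 4, where the change was −0.74. AGL16 (AT3G57230), a MADS-box gene of stomatal patterning, differed by 0.13 with overlapping groups.

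**Figure D3:**
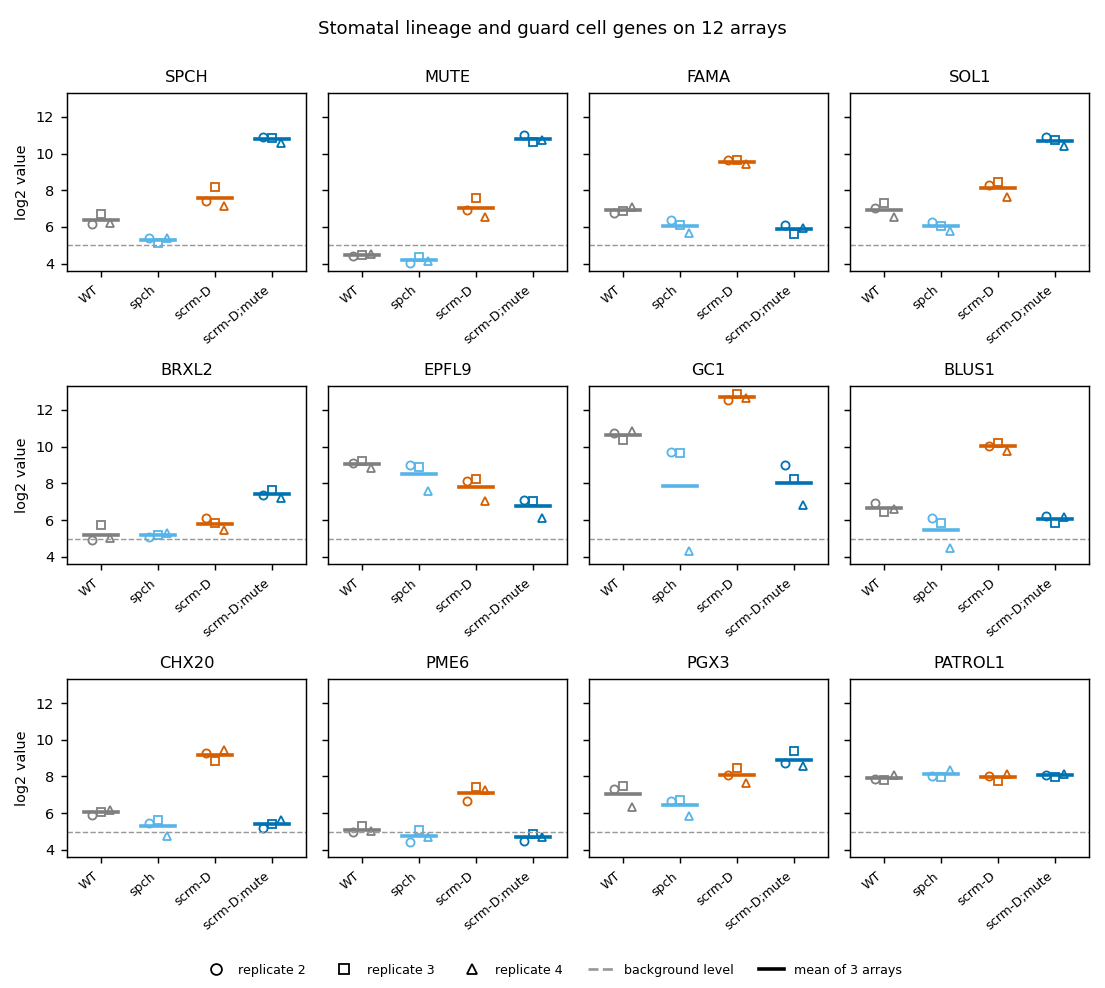
Log2 values (y axis) of 12 stomatal lineage and guard cell genes in the 4 genotypes (x axis), with 1 symbol per array, a bar at the mean of 3 arrays and the background level as a dashed line. CHX20 is in neither list and is among the 15 largest falls. The measured lineage list gene AGL16, which differed by 0.13 with no call, is not drawn. SPCH, MUTE, SOL1 and BRXL2 are highest in scrm-D;mute, whereas FAMA, GC1, BLUS1, CHX20 and PME6 are highest in scrm-D, and the GC1 value of spch replicate 4 (4.31) stands far under those of spch replicates 2 and 3.

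Genes of guard cell function fell, with 2 exceptions among those measured. Of 47 listed genes 5 had a probe set assigned to 1 gene, and 3 (60%) were called, all lower, against 5.94% of all probe sets called lower. The median log2 change over the 5 was −2.45. GC1 (AT1G22690), whose promoter is widely used to mark guard cells, read 12.54, 12.86 and 12.66 in scrm-D and 8.98, 8.21 and 6.84 in the double mutant. GC1 was 25.6-fold lower, but its scrm-D;mute arrays spread over more than 2 log2 units and its error was wide (log2 change −4.68 ± 1.08 SE, adjusted p = 0.0126). That error is shared with spch, where replicates 2, 3 and 4 read 9.70, 9.64 and 4.31, and a fit of the 6 arrays alone gave an adjusted p of 0.000467. Without scrm-D;mute replicate 4, its lowest array, the GC1 change was −4.09 (adjusted p = 0.0404). GC1 read 10.74, 10.38 and 10.86 in WT, nearer to scrm-D. Neither scrm-D;mute (adjusted p = 0.0900) nor scrm-D (adjusted p = 0.270) was called against WT for GC1. BLUS1 (AT4G14480), a kinase through which blue light opens stomata, read 10.03, 10.22 and 9.78 in scrm-D and 6.21, 5.85 and 6.16 in the double mutant. It was 15.3-fold lower (log2 change −3.94 ± 0.33 SE, adjusted p = 5.49e-06) and its scrm-D;mute level was not called against its WT level (−0.59 ± 0.33, adjusted p = 0.215). PME6 (AT1G23200), a pectin methylesterase of the guard cell wall, read 6.67, 7.44 and 7.26 in scrm-D and 4.48, 4.87 and 4.67 in the double mutant. The scrm-D;mute values were all under the background level, so PME6 was at least 4.39-fold lower (adjusted p = 6.56e-06), and as the middle value of the 5 genes it makes the median of the list an estimate under background too.

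The other measured members of the guard cell list were not called. PGX3 (AT1G48100), a polygalacturonase of stomatal walls, read 8.07, 8.48 and 7.66 in scrm-D and 8.73, 9.40 and 8.55 in the double mutant. All its scrm-D;mute values lay above the scrm-D values, yet the difference of 0.82 ± 0.34 did not pass (adjusted p = 0.140). Under a replicate block its adjusted p was 0.00282. PATROL1 (AT5G06970), which controls a proton pump of stomatal opening, differed by 0.11 ± 0.14 with overlapping groups (adjusted p = 0.708).

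CHX20 (AT3G53720), a cation/H+ exchanger of guard cells, belonged to no list and was among the 15 largest falls. It read 9.28, 8.87 and 9.42 in scrm-D and 5.19, 5.39 and 5.65 in the double mutant, a 13.7-fold fall (log2 change −3.78 ± 0.21 SE, adjusted p = 1.87e-07). WT lay between the groups at 5.88 to 6.20. CHX20 was highest on replicate 4 of scrm-D;mute, the array with the raised Phe control, whereas GC1 was lowest there. Of the 109 probe sets that fell at least 4-fold, 49 (45%) were highest on that array among the 3 of scrm-D;mute and 32 were lowest. Replicate 4 minus the mean of replicates 2 and 3 had a median of 0.0694 over the 109. How often replicate 4 was highest over all probe sets is not given, and the part of the Phe signal in these values was not tested.

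The few measured genes of G2 and mitosis were higher in scrm-D;mute. All 5 measured members of the 33 listed G2 and mitosis genes were called higher, against 7.45% of all probe sets. Their median log2 change was 0.90. The other listed genes, cyclins among them, had no probe set assigned to 1 gene. AUR1 (AT4G32830), an Aurora kinase of the spindle and cell plate, read 8.30, 8.52 and 8.26 in scrm-D and 9.10, 9.24 and 9.24 in the double mutant. It rose 1.78-fold (log2 change 0.84 ± 0.13 SE, adjusted p = 0.00113) with no overlap, and WT read 8.14, 8.56 and 8.31, among the scrm-D values. AUR3 (AT2G45490), the Aurora kinase of centromeric chromatin, read 6.58, 6.28 and 5.98 in scrm-D and 7.24, 7.32 and 7.23 in the double mutant, a rise of 0.98 ± 0.15 (adjusted p = 0.000771). BUBR1 (AT2G33560), a protein of the spindle checkpoint, read 6.05, 6.21 and 5.94 in scrm-D and 7.54, 7.52 and 6.82 in the double mutant, the lowest of the latter being replicate 4 (log2 change 1.23 ± 0.22 SE, adjusted p = 0.00237). BUB3.1 (AT3G19590), its checkpoint partner, rose by 0.90 ± 0.14 (adjusted p = 0.000883). AUR2 (AT2G25880) rose by 0.73 ± 0.20 (adjusted p = 0.0281), a call that ended without any 1 of scrm-D;mute replicates 2, 3 and 4 or scrm-D replicates 3 and 4, with adjusted p from 0.0511 to 0.106.

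Against WT the same 5 genes were higher in scrm-D;mute by 0.78 to 1.08, whereas scrm-D differed from WT by −0.15 to 0.13 with no call. Among 24 listed genes of DNA replication and S phase, 2 were measured and 1 (50%) was called, against 13.4% of all probe sets. PRL (AT4G02060), part of the MCM helicase, read 8.49, 8.11 and 8.09 in scrm-D and 9.19, 9.06 and 8.84 in the double mutant, and rose 1.74-fold (log2 change 0.80 ± 0.16 SE, adjusted p = 0.00455). CENH3 (AT1G01370), the centromeric histone, differed by 0.58 ± 0.18 with separate groups (adjusted p = 0.0547). Its adjusted p was 0.0406 under the replicate block, 0.0384 in the 6 arrays alone, 0.0460 with a minimum mean of 5, 0.0385 without spch replicate 2 and 0.0309 without spch replicate 4. It was as high as 0.186 in other settings, with replicate 4 left out of all 4 genotypes.

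Kinesin, histone and tubulin genes were taken as families by name, and their counts are set against the 13.4% of all probe sets called. Of the 2 kinesins matched by name 1 was called, KINESIN-12B (AT3G23670), a motor of the phragmoplast (log2 change 1.08 ± 0.23 SE, adjusted p = 0.00874). KINESIN-13A differed by 0.18 with no call, and kinesin genes under other names are not counted. Of 5 histone genes HON4 was called (0.67, adjusted p = 0.00641), and with the block 3 of the 5 passed. None of the 7 tubulin genes was called (range −0.52 to 0.56), and 2 passed with the block. Further genes known from dividing cells are described from the 74 genes with a symbol that were called at 2-fold or more, 37 higher and 37 lower among 1535 genes with a symbol. That rule was added after the values had been seen and chose genes by their calls, so the genes taken from it here and below are examples, and neither their direction nor what they have in common was tested. Over all probe sets, 864 of 22746 (3.80%) were called at 2-fold or more. 3xHMG-box1 (AT4G11080) and 3xHMG-box2 (AT4G23800), proteins that bind mitotic chromosomes, rose by 1.88 ± 0.20 and 1.60 ± 0.24 (adjusted p = 5.06e-05 and 0.000666). TOPII (AT3G23890), the topoisomerase that untangles sister chromatids, read 7.39, 7.38 and 7.59 in scrm-D and 8.93, 8.73 and 8.31 in the double mutant (log2 change 1.20 ± 0.19 SE, adjusted p = 0.000924). WYR (AT5G55820), an INCENP homolog of the Aurora complex, was at least 1.71-fold higher, with scrm-D under the background level (adjusted p = 0.00145).

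**Figure D4:**
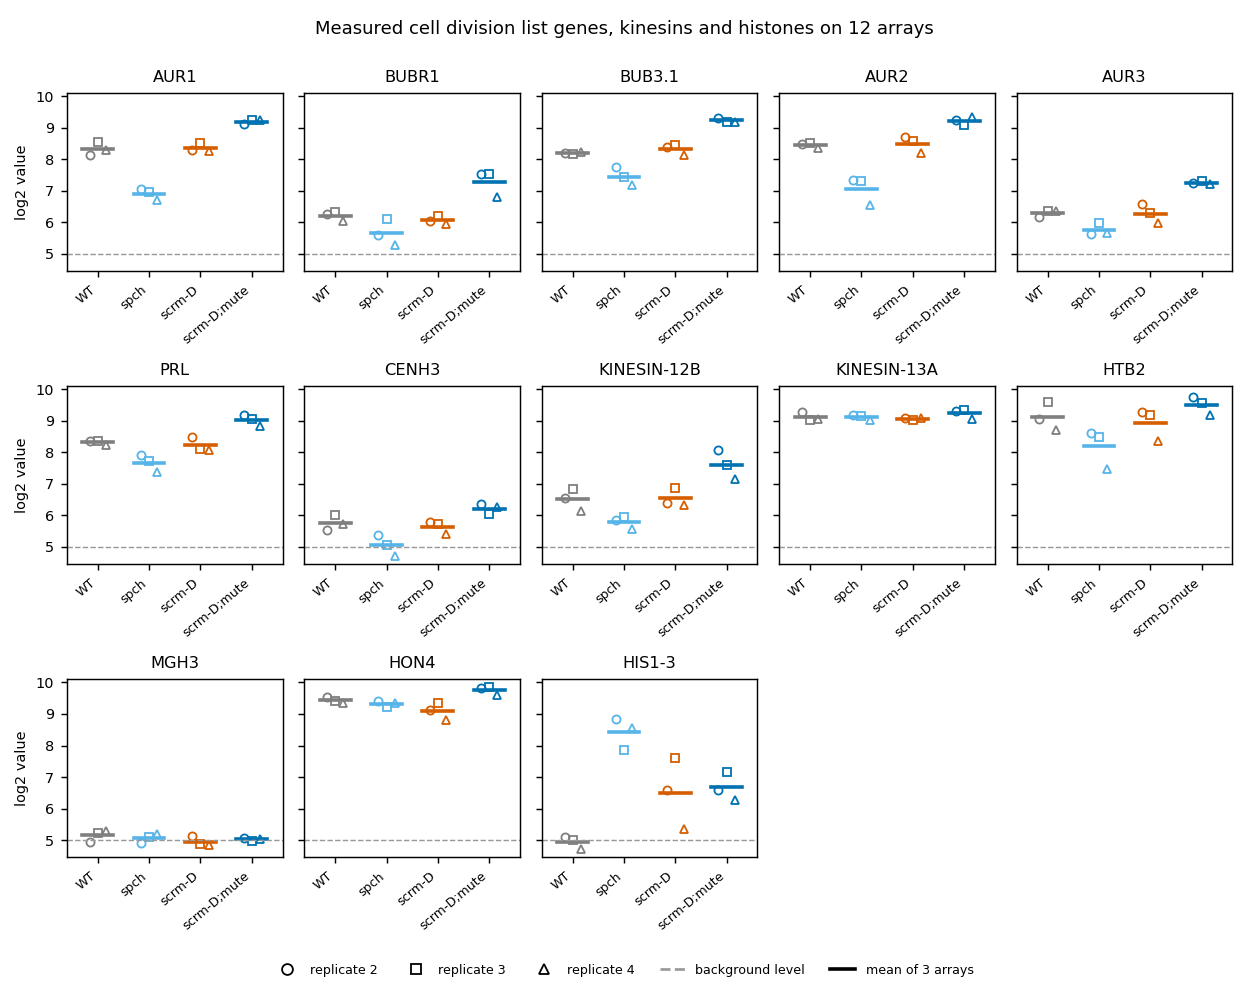
Log2 values (y axis) of 13 genes in the 4 genotypes (x axis), drawn with 1 symbol per array, a bar at the mean of 3 arrays and the background level as a dashed line. The genes are the 7 measured genes of the G2, mitosis and S phase lists and the other kinesin and histone genes matched by name. The groups of scrm-D;mute and scrm-D are separate, with scrm-D;mute higher, in 9 of the 13 panels (28.4% of all probe sets have separate groups in either direction), and they overlap for KINESIN-13A, HTB2, MGH3 and HIS1-3.

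Of the 15 largest rises, 4 had all 3 scrm-D values under the background level. AT4G28420 read 4.19, 4.00 and 4.16 in scrm-D, under background, and 8.0, 9.08 and 8.97 in the double mutant, at least 12.9-fold higher (adjusted p = 5.88e-08). AT5G07260 (START domain protein) read 5.92, 5.74 and 5.98 in scrm-D and 10.08, 10.38 and 9.93 in the double mutant, a 19.0-fold rise (log2 change 4.25 ± 0.12 SE, adjusted p = 9.28e-10). RSU1 (AT3G48130) read 5.08, 5.00 and 4.85 in scrm-D and 8.89, 9.14 and 9.30 in the double mutant, a log2 change of 4.14 ± 0.12 SE from a level at background (adjusted p = 9.28e-10). In each of the 3 the scrm-D;mute arrays stood more than 3 log2 units above every other array of the 4 genotypes. PID2 (AT2G26700), a kinase related to PINOID, read 4.92, 5.16 and 4.44 in scrm-D and 8.33, 8.39 and 8.02 in the double mutant (log2 change 3.41 ± 0.17 SE, adjusted p = 5.88e-08), with 2 of its 3 scrm-D values under background. The remaining rises of the 15 without a symbol ran from 3.08 (AT1G33930) to 4.04 (AT2G22320, at least 7.63-fold). WT was nearer to scrm-D than to scrm-D;mute for all 15, and its 3 values lay under background for 11.

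Of the 15 largest falls, 4 had all 3 scrm-D;mute values under the background level. AT5G18430 read 9.80, 10.17 and 9.79 in scrm-D and 4.47, 4.20 and 5.65 in the double mutant, a log2 change of −5.14 ± 0.31 SE (adjusted p = 2.83e-07), with 2 of its 3 scrm-D;mute values under background. AT1G75880, a lipase gene, read 9.35, 9.27 and 9.39 in scrm-D and 4.31, 4.17 and 4.70 in the double mutant, and was at least 20.3-fold lower (adjusted p = 1.68e-08). Both read 4.73 to 6.00 in WT, far nearer to scrm-D;mute than to scrm-D. AT3G28220 was an exception to that order. It read 10.33, 10.42 and 9.44 in scrm-D, 7.43, 6.5 and 4.96 in the double mutant and 10.44, 10.96 and 8.53 in WT, so WT stood with scrm-D (log2 change −3.77 ± 0.62 SE, adjusted p = 0.00138). Over the 15 falls WT was nearer to scrm-D;mute for 13 and to scrm-D for 2, AT3G28220 and GC1.

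**Figure D5:**
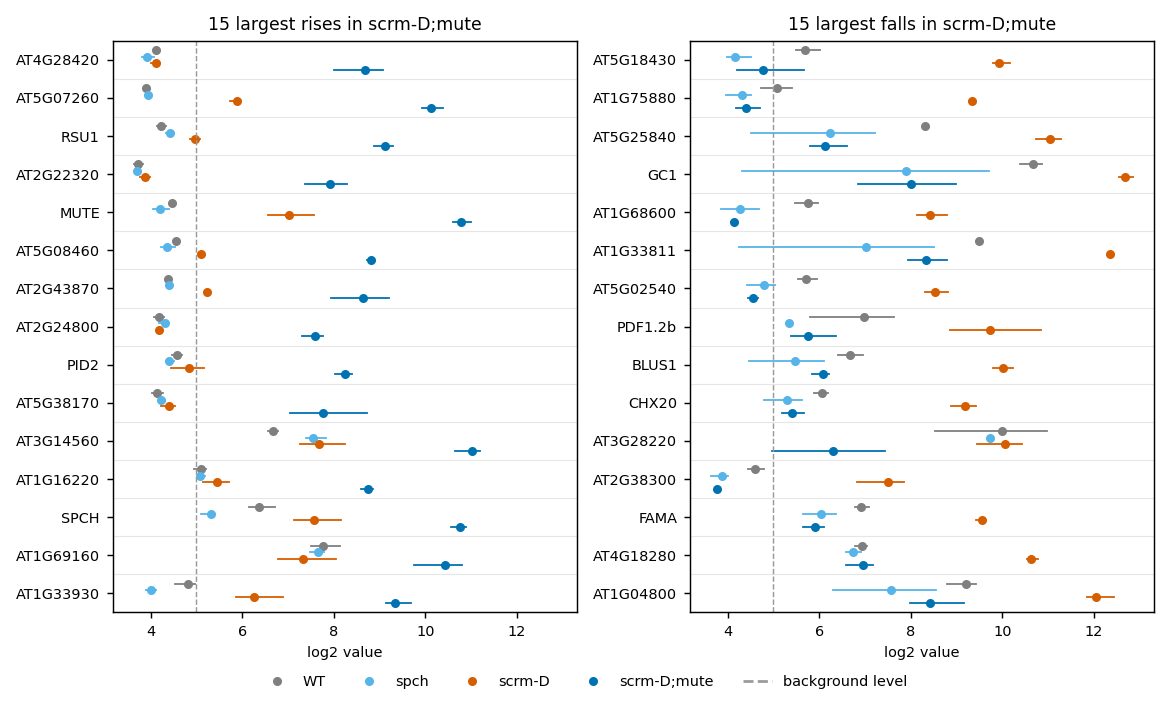
Mean log2 value (point, x axis) and range over 3 arrays (line) in each genotype for the 15 largest rises (left) and the 15 largest falls (right) among called genes with separate groups, with 1 row per gene and the background level as a dashed line. WT is nearer to scrm-D in all 15 rises, where its values are under background for 11, and it is nearer to scrm-D;mute in 13 of the 15 falls.

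The levels of WT and spch were also set beside all probe sets called at 4-fold or more, named or not. Of the 117 that rose, WT was nearer to scrm-D in all 117. All WT values were under background in 32 of these and all scrm-D values in 18. Of the 109 that fell, WT was nearer to scrm-D;mute in 79 and to scrm-D in 30. All scrm-D;mute values were under background in 22 of these and all WT values in 17. The spch level was nearer to scrm-D;mute in 82 of the 109. Over all probe sets 6297 (27.7%) were called between scrm-D;mute and WT and 3220 (14.2%) between scrm-D and WT. These counts share arrays with the comparison and are given as levels only. How often WT was nearer to either group over all probe sets is not given, here or for the 15 rises and falls.

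Genes of the cell wall moved in both directions. Of 19 expansin genes, which encode wall-loosening proteins, 6 (31.6%) were called, 3 in each direction, against 13.4% of all probe sets. The median over the 19 was −0.044. EXPA9 (AT5G02260) read 8.60, 9.29 and 8.93 in scrm-D and 11.56, 12.01 and 12.03 in the double mutant, a 7.61-fold rise (log2 change 2.93 ± 0.23 SE, adjusted p = 2.90e-06). EXPA16 (AT3G55500) was already high in scrm-D, at 10.21, 10.52 and 10.14, and read 11.70, 12.15 and 12.07 in the double mutant (log2 change 1.68 ± 0.24 SE, adjusted p = 0.000498), while WT lay between 4.94 and 6.08. EXPB3 (AT4G28250) rose by 1.59 ± 0.44 (adjusted p = 0.0308), a call that ended without any 1 of scrm-D;mute replicates 2 and 3 or scrm-D replicates 2, 3 and 4 (adjusted p from 0.0536 to 0.108). The expansin-like genes EXLA1 (AT3G45970), EXLA2 (AT4G38400) and EXLB1 (AT4G17030) fell by 1.06, 0.70 and 0.63. EXLA2 had an adjusted p of 0.00902. The EXLA1 call ended without scrm-D;mute replicate 2 or 3 (adjusted p = 0.0682 and 0.0554). The EXLB1 call ended without any 1 of scrm-D;mute replicates 2, 3 and 4 or scrm-D replicates 3 and 4 (adjusted p from 0.0618 to 0.107) and in the 6 arrays alone (0.0514). EXPA7 and EXPA18, root hair expansins and the measured root markers, differed by −0.63 and −0.38 with no call, though EXPA7 passed without scrm-D replicate 2 (adjusted p = 0.0129). The shoot meristem marker CLV3 read under the background level on all 6 arrays.

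Of 10 xyloglucan endotransglucosylase genes, which cut and rejoin wall xyloglucan, 2 (20.0%) were called, against 13.4% of all probe sets and 16% of the genes with a symbol, while the replicate block gave 4. XTH32 (AT2G36870) read 10.22, 10.16 and 9.91 in scrm-D and 8.39, 9.19 and 8.91 in the double mutant (log2 change −1.26 ± 0.19 SE, adjusted p = 0.000867). XTH16 (AT3G23730) rose by 0.95 ± 0.26 (adjusted p = 0.0304), a call that ended without any 1 of scrm-D;mute replicates 2 and 3 or scrm-D replicates 2 and 4 (adjusted p from 0.0600 to 0.114). The 2 cellulose synthase-like C genes among those with a symbol differed in sign, CSLC5 (AT4G31590) at 1.06 ± 0.19 and CSLC04 (AT3G28180) at −1.06 ± 0.20 (adjusted p = 0.00268 and 0.00321). GH9B12 (AT2G44570) and GH9B18 (AT4G39010), endoglucanase-family enzymes, fell at least 3.20-fold and by 1.60 (adjusted p = 3.80e-06 and 1.28e-05). Among 4 pectin enzyme genes matched by name, which leave out PME6 and PGX3 described above, 1 (25%) was called, against 13.4% of all probe sets. It was PME61 (AT3G59010), at least 1.11-fold higher (adjusted p = 0.00281).

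EMS1 (AT5G07280), a leucine-rich repeat receptor kinase known from the anther tapetum, read 7.92, 7.63 and 7.03 in scrm-D and 10.16, 9.91 and 9.59 in the double mutant, a 5.12-fold rise (log2 change 2.36 ± 0.22 SE, adjusted p = 1.54e-05). RR16 (AT2G40670), a type-A response regulator of cytokinin signalling, read 7.59, 7.50 and 6.97 in scrm-D and 9.53, 9.17 and 9.23 in the double mutant, a 3.88-fold rise (adjusted p = 0.000171). Both were lower still in WT, EMS1 at 5.42 to 5.97 and RR16 at 4.85 to 5.82. CLE27 (AT3G25905), a CLE-family peptide gene, rose by 1.87 ± 0.21 (adjusted p = 8.51e-05). The calmodulin-binding IQD genes IQD16 (AT4G10640) and iqd21 (AT3G49260) rose by 2.14 ± 0.17 and 1.71 ± 0.27 (adjusted p = 4.56e-06 and 0.000979). The actin-binding NET family split, NET3C (AT2G47920) being at least 3.08-fold higher and NET4B (AT2G30500) lower by 1.74 ± 0.20 on the log2 scale (adjusted p = 3.09e-05 and 8.43e-05).

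APL4 (AT2G21590) and APL3 (AT4G39210), large subunits of the ADP-glucose pyrophosphorylase that feeds starch synthesis, both fell. APL4 read 7.37, 6.76 and 6.81 in scrm-D and 4.36, 4.35 and 4.16 in the double mutant, under background, at least 3.97-fold lower (adjusted p = 5.65e-07). APL3 read 6.11, 6.40 and 6.37 in scrm-D and 4.96, 5.31 and 5.12 in the double mutant (log2 change −1.16 ± 0.20 SE, adjusted p = 0.00180). Neither differed from WT with a call in scrm-D;mute (adjusted p = 0.168 and 0.848). QQS (AT3G30720), an orphan gene linked to starch content, fell by 1.72 ± 0.24 (adjusted p = 0.000344), with 2 of its 3 scrm-D;mute values under background. AtVEX1 (AT5G62850), a SWEET-family sugar transporter gene, was at least 2.73-fold lower (adjusted p = 3.15e-06), with WT at 4.48 to 4.82, also under background.

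Of 6 defensin and thionin genes 2 (33.3%) were called, both lower, against 13.4% of all probe sets. PDF1.2 (AT5G44420), a defensin gene induced by jasmonate and ethylene, read 9.58, 8.16 and 9.94 in scrm-D and 6.28, 6.81 and 5.83 in the double mutant, a 7.58-fold fall (log2 change −2.92 ± 0.39 SE, adjusted p = 0.000299). PDF1.2b (AT2G26020) read 9.48, 8.86 and 10.85 in scrm-D and 5.37, 5.52 and 6.36 in the double mutant (log2 change −3.98 ± 0.51 SE, adjusted p = 0.000213). These are related sequences whose probe sets may share signal, and the scrm-D arrays spread over more than 1 log2 unit in both. THI2.2 (AT5G36910), a thionin gene, differed by −0.49 with no call. Of 7 WRKY genes, a family of defence and stress regulators, ZAP1 (AT2G04880) was called, higher by 0.86 (adjusted p = 0.000922), a share of 14.3% against the 13.4% over all probe sets. Of 6 class III peroxidase genes matched by name 3 (50%) were called, against 13.4% of all probe sets. All 3 were lower, by 0.56 to 0.92 on the log2 scale, with calls that ended in several fits without 1 array. For AT5G66390, whose groups overlapped, adjusted p was up to 0.171 without scrm-D;mute replicate 3 and 0.0501 with the block, for PRX52 up to 0.138 without scrm-D;mute replicate 2, and for Prx37 up to 0.147 without scrm-D;mute replicate 3.

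For some symbol-bearing genes scrm-D stood apart from both WT and scrm-D;mute. WT was likewise nearer to scrm-D;mute in 79 of the 109 probe sets that fell at least 4-fold. UGT78D1 (AT1G30530), a flavonol rhamnosyltransferase, read 8.20, 8.0 and 7.32 in scrm-D, 9.93, 9.82 and 9.34 in the double mutant and 9.85, 9.67 and 9.57 in WT (log2 change against scrm-D 1.86 ± 0.36 SE, adjusted p = 0.00405). CHIL (AT5G05270), a chalcone isomerase-like protein of flavonoid synthesis, rose by 1.39 ± 0.30 (adjusted p = 0.00862), with WT at 10.21 to 10.35 near the scrm-D;mute values of 10.33, 10.85 and 10.80. MGL (AT1G64660), methionine gamma-lyase, fell by 2.39 ± 0.36 (adjusted p = 0.000710), and its scrm-D;mute level differed from WT by −0.17 with no call.

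Other families are set against the 13.4% of all probe sets that were called. None of 5 light-harvesting and photosystem genes was called (range −0.32 to 0.15), nor any of 7 auxin response genes (−0.29 to 0.19) or 2 glutaredoxin genes (−0.20 and 0.02). Of 24 cytochrome P450 genes 1 (4.17%) was called, CYP71B24, higher by 0.71 (adjusted p = 0.0372). The CYP71B24 call ended in 7 of 12 fits without 1 array, with adjusted p up to 0.109 without scrm-D replicate 2. Of 7 basic helix-loop-helix genes matched by name, which do not include the stomatal factors, 1 (14.3%) was called, bHLH115 at −0.52 (adjusted p = 0.0380), and its adjusted p reached 0.146 without scrm-D;mute replicate 3. Of 4 subtilase genes 2 were called higher, SBT1.3 by 1.06 ± 0.18 (adjusted p = 0.00199) and SBT3.12, a call that ended without scrm-D;mute replicate 2 (adjusted p = 0.106) or scrm-D replicate 3 or 4. SBTI1.1 (AT1G01900), a subtilase whose name did not match the family pattern, fell by 2.38 ± 0.20 (adjusted p = 6.34e-06).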

How the data were processed

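Expression was measured on 12 Affymetrix arrays, and the authors deposited 1 log2 value per probe set and array. RMA and limma are named, with no version, in the submitters' processing notes, so the values were used as already background-corrected, normalized and summarized. Each genotype was given 1 mean over all 12 arrays in limma (3.58.1, under R 4.3.3), which leaves 8 residual degrees of freedom and a prior of 4.41, and the contrast scrm-D;mute minus scrm-D was tested two-sided. The 64 control probe sets were left out, and p-values were adjusted by Benjamini-Hochberg over the other 22746. Unless stated otherwise, changes are on the log2 scale and errors are SE. P-values rest on a spread within genotypes that is pooled over the 4 genotypes and 12 arrays, not on the 6 compared arrays alone. RNA was copied from an oligo-dT primer, per the labels' protocols.

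Where all values of the lower group lay under the background level of 4.99, the higher mean was set against that level and the fold is written as at least. Levels of different probe sets were not compared. Names came from the platform annotation, which gives 1 gene for 13513 of 22810 probe sets and several for 503, with 8794 unnamed here. Of these, 13436 matched a locus of TAIR10.1, and 1432 of the 3046 calls have no single named locus. Only 22 of 175 listed genes had a probe set assigned to 1 gene in this annotation. The listed genes of vascular tissue, of pavement cells, trichomes and cuticle, and of myrosin cells had no such probe set. Nor did families such as cyclins, channels and aquaporins. Whether unnamed probe sets read these genes was not examined, so their absence here does not mean that the array lacks them.

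Genes were named by rule: SPCH, MUTE, FAMA and SCRM, the 15 largest rises and falls among called genes with separate groups, and members of lists and families. The lists and the comparison were chosen with earlier results of these data known. The name patterns of 3 families were corrected, and the rule for genes with a symbol was added, after the data were seen. A family holds only genes whose name matched its pattern, so measured members with other names, such as PME6, PGX3 and SBTI1.1, are not counted. No sequences are used here, and positions in TAIR10.1 served only to tell which genes are neighbours.

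Deviations from genotype means correlated between arrays of the same replicate number with r = 0.260, 0.215 and 0.525 for replicates 2, 3 and 4. Different numbers gave 0.140 and 0.177 between replicates 2 and 3 and −0.29 to −0.37 with replicate 4. The values thus set replicate 4 apart, but hardly tell replicates 2 and 3 from each other. What the numbers stand for is not in the labels, and any pairing is read from the values alone. The main calls come from the fit without a block. The fit with the replicate number as a block called 3956 probe sets, 3022 of them shared with the fit without it. The procedure was tested on simulated data, and 23 alternatives were run.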

Additional observations from a re-analysis of the deposited data

Results flagged for a closer look

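Control probe sets, which were left out of the calls, read above every WT array on some of the 6 arrays. The Phe control averaged 13.07, 13.09 and 13.08 on scrm-D replicates 2, 3 and 4 and 5.15 on scrm-D;mute replicate 4, where the highest WT array read 4.34. On scrm-D;mute replicate 4 all 6 Phe probe sets, from 4.41 to 6.61, exceeded replicates 2 and 3. The Trp control averaged 12.92, 13.02 and 12.82 on scrm-D;mute replicates 2, 3 and 4, against at most 3.86 in WT. The 25S rRNA control read 10.84 and 11.06 on scrm-D;mute replicates 2 and 3 and 10.07, 9.74 and 8.98 on scrm-D replicates 2, 3 and 4, against at most 7.50 in WT. With the 25S rRNA value as a covariate 3175 probe sets were called, 2932 of them shared with the 3046 called without it. Without scrm-D;mute replicate 4 there were 3197, of which 2559 were shared, and no shared call changed direction in either fit.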

How the results depend on the processing

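In 23 alternatives no probe set called in both fits changed direction, and 102 of the 116 called genes followed kept call and direction in every one in which they were tested, 70 of them in all 23, since a minimum mean leaves genes out. Probe sets called ranged from 1962 to 3333 with 1 array left out, those higher from 1081 to 1795 and those lower from 839 to 1538. The replicate block gave 3956, the 6 arrays alone 2519, median-centred arrays 2979 and a minimum mean of 6 gave 2449. The count of S phase genes was 2 with the replicate block, in the 6 arrays alone and with a minimum mean of 5, and 1 to 2 with 1 array left out. The root list gave 0 to 1. With the block the list members EPFL9, PGX3 and CENH3 were gained, as were the family members HTB2, TUA6, TUB7, EXPA15, EXPA4, XTH18, XTH19, SBT4.12 and CYP71B5, and AT5G66390 was lost. Differences near 0 changed sign. CLV3 gave −0.03 in the main setting, 0.0584 without replicate 4 of every genotype, 0.0091 with neither scrm-D;mute nor spch replicate 4 (chosen after seeing the data) and −0.0943 to 0.0205 with 1 array left out. PATROL1 gave −0.0013 to 0.19 with 1 array left out. Of the gene calls, MSRB9, ChiC and TBL26 also ended without 1 scrm-D;mute or scrm-D array. The causes were not tested.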

Other observations

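Several of the largest changes lay in probe sets without a single named gene. The largest fall of all, −5.49 ± 0.33 SE (adjusted p = 3.35e-07), was read by a probe set that the annotation assigns to 2 genes. It read 10.65, 11.20 and 10.98 in scrm-D and 5.00, 5.23 and 6.11 in scrm-D;mute. The largest fall of a probe set unlisted in that annotation was −5.10 ± 0.25, and it read 10.11, 9.53 and 10.29 in scrm-D and 4.26, 4.93 and 5.43 in scrm-D;mute. Its scrm-D;mute values stood highest on replicate 4, as did those of the former. The largest rises of unlisted probe sets were 4.08 ± 0.18 (adjusted p = 3.20e-08) and 3.66 ± 0.15 (adjusted p = 1.88e-08).

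The order of protein-coding genes in TAIR10.1 placed some of the genes that rose at least 4-fold beside one another. Among 64 such loci, 4 combinations were at most 2 positions apart, and among 52 loci that fell at least 4-fold there was none. The share over all measured loci is not given, so these counts do not show that genes that rose lie closer together than others. AT5G07260 and EMS1, 2 positions apart, rose by 4.25 and 2.36. AT5G38160 and AT5G38170 are direct neighbours and rose by 3.06 and 3.38, AT3G12460 and AT3G12470 by 2.42 and 2.60, and AT2G19980 and PR-1-LIKE by 2.79 and 2.32. Neighbours of related sequence may share probe signal, which was not tested.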
